A study of Mus musculus with 18 samples.

Results

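Rbm20, the gene of a muscle splicing regulator, and 7 genes of the same chromosome stretch were followed in ventricles of mutant and wild-type rats at 1, 20 and 49 days of age. The 8 genes are Rbm20, Bbip1, Pdcd4, Dusp5, Nrap, Tdrd1, Trub1 and Fhip2a. They were chosen because their signal differed between the genotypes in these arrays, and every probe set that the platform annotation gives to one of these symbols alone was taken. This gave 13 probe sets of 8 genes, out of 31042 probe sets tested and 14217 genes with a probe set of their own. All members had at least 1 probe set, and no filter on low values was applied. Since the genotype difference chose the members, it is described for them without a test, while changes with age, averaged over both genotypes, were tested.

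The mutant animals were homozygous, per the design text, for a mutation that is known to shift titin towards longer splice forms. It was first seen in Sprague-Dawley rats, and that stock was then crossed with Fisher 344 inbred rats. The same strain text is given for the wild-type animals, and littermates are not named. Each of the 6 groups held 3 animals with 1 array each, fed standard chow, and no treatment is named. Genotype was read from the descriptions, as the genotype field does not differ between samples. The labels do not name the mutated gene or the parental strain of each animal's chromosomes. The mutation and the parental alleles linked to it, including sequence differences under the probes, cannot be told apart in these groups. One label field gives the organism as mouse, whereas the descriptions, strains and array are rat, and the titles say whole heart where the design text says ventricles.

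RBM20 is an RNA-binding protein of striated muscle that represses the inclusion of exons, above all in titin, so that its loss gives longer and more compliant titin forms. Mutations in it cause dilated cardiomyopathy in people, and the rat line studied here is known to carry a large deletion within Rbm20. Of the neighbouring genes, Nrap has the closest tie to heart muscle, as it encodes an actin-binding scaffold of the intercalated disc and of myofibril assembly. Dusp5 encodes a nuclear phosphatase that inactivates ERK kinases. PDCD4 restrains translation by binding the helicase eIF4A, BBIP1 is a small subunit of the BBSome, which moves cargo in cilia, and TRUB1 makes pseudouridine in RNA. TDRD1 is a Tudor domain protein of the germline piRNA pathway, and FHIP2A belongs to a family that links vesicles to dynein through Hook proteins.

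Levels are the authors' log2 values from robust multi-array analysis, so a difference of 1 is a doubling of signal. Such values have no floor at 0, and the median probe set had a mean level of 5.47. Ventricular cardiomyocyte markers (8 of 9 measured) averaged 13.05 to 13.42 on every array. Array averages of other marker sets differed by genotype or age, given as ranges. Of all single probe sets, 9.07% to 13.7% stood apart by genotype at an age. In limma's moderated test of genotype at single ages, 0 markers of the sets below passed an adjusted p of 0.05. In the mean over ages 4 cycling cell markers and 1 atrial marker passed. Cycling cell markers (6 of 6 measured) averaged 5.89 to 6.18 in the mutant and 5.28 to 5.32 in the wild type at day 20, after 8.90 to 9.29 over both genotypes at day 1. Atrial and conduction markers (7 of 7) averaged 9.80 to 10.73 in the mutant and 9.70 to 9.78 in the wild type at day 1. Among them Sln differed most at that age, by 2.70 ± 0.92 (adjusted p = 0.471 in the same test). Leukocyte markers (6 of 6) averaged 6.30 to 6.60 at day 1 and 7.96 to 8.40 at day 49. Fibroblast markers (7 of 7) at day 49 averaged 10.88 to 11.18 in the mutant and 10.64 to 10.86 in the wild type. In that order, cycling cell markers were at 5.59 to 6.15 and 5.22 to 5.49, and erythroid markers (3 of 5) at 9.36 to 10.52 and 9.02 to 9.34. Ventricular cardiomyocyte markers went the other way, at 13.21 to 13.27 and 13.30 to 13.31. Day 1 arrays also had less even RNA ends, with 3' over 5' Gapdh gaps of 0.63 to 1.37 against 0.33 to 0.48 at day 49. Animals with high Xist were 1 of 3 in each group at days 1 and 20 and 2 of 3 at day 49. The part of these in the results below was not tested, except where a value is given. In such tissue samples, fewer cells of a type and less RNA per cell cannot be told apart.

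Across the 3 ages the members fell into genes with lower signal in the mutant (Rbm20 and Bbip1), genes with higher signal (Fhip2a, Trub1, Nrap and Pdcd4), and Dusp5 and Tdrd1, whose difference was small or opposite at day 1. At day 1, of 13 probe sets, the 3 mutant arrays were all below the wild-type arrays in 3 and all above in 8. Of all probe sets, 4.33% and 4.74% stood apart in this way (9.07% in either direction). At day 20 the counts were also 3 below and 8 above, against 5.76% and 4.67% of all (10.4% together). At day 49 they were 4 below and 7 above, against 6.96% and 6.70% (13.7% together). The same side was taken without overlap at all 3 ages by 9 probe sets of 6 members and by 0.467% of all probe sets. Over all ages at once, all 9 mutant arrays were below all 9 wild-type arrays in 3 probe sets and above in 2, against 0.0226% and 0.0193% of all probe sets (0.0419% together). These counts restate how the members were chosen, and nothing is read from them.

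Rbm20 had by far the lower signal in the mutant. In the wild type, probe set 1391810_at read 10.73, 10.63 and 10.90 at day 1, then 10.60, 10.31 and 10.89 at day 20, and 10.29, 10.54 and 9.74 at day 49. The mutant arrays read 6.12, 5.50 and 5.51, then 5.35, 5.45 and 5.67, and finally 6.06, 5.58 and 5.97. The lowest wild-type array thus stood 3.62 above the highest mutant array over all ages, and no array of either genotype came near the other group. Averaged over ages the signal was lower by 4.83 ± 0.12 (standard error, SE, of the model over 18 arrays), a 28.3-fold lower signal, and this was the largest difference of all 31042 probe sets. By age the difference was -5.04 ± 0.20, -5.11 ± 0.20 and -4.33 ± 0.20.

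The second Rbm20 probe set, 1378337_at, gave the same order of the groups with a smaller step. Wild-type arrays read 6.68, 6.69 and 6.62 at day 1, 6.39, 6.02 and 6.20 at day 20 and 6.35, 6.13 and 6.41 at day 49. Mutant arrays read 4.84, 4.87 and 4.35, then 5.08, 5.06 and 4.72, and 5.10, 5.03 and 5.49. Here too, each mutant array read less than the lowest wild-type array, by at least 0.53. The difference was -1.98 ± 0.15 at day 1, -1.25 ± 0.15 at day 20 and -1.09 ± 0.15 at day 49. Mutant levels in both probe sets lay close to the median probe set, where background holds up the signal, so folds from them may be too small. Which exons the probes read was not analysed here.

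**Figure D1:**
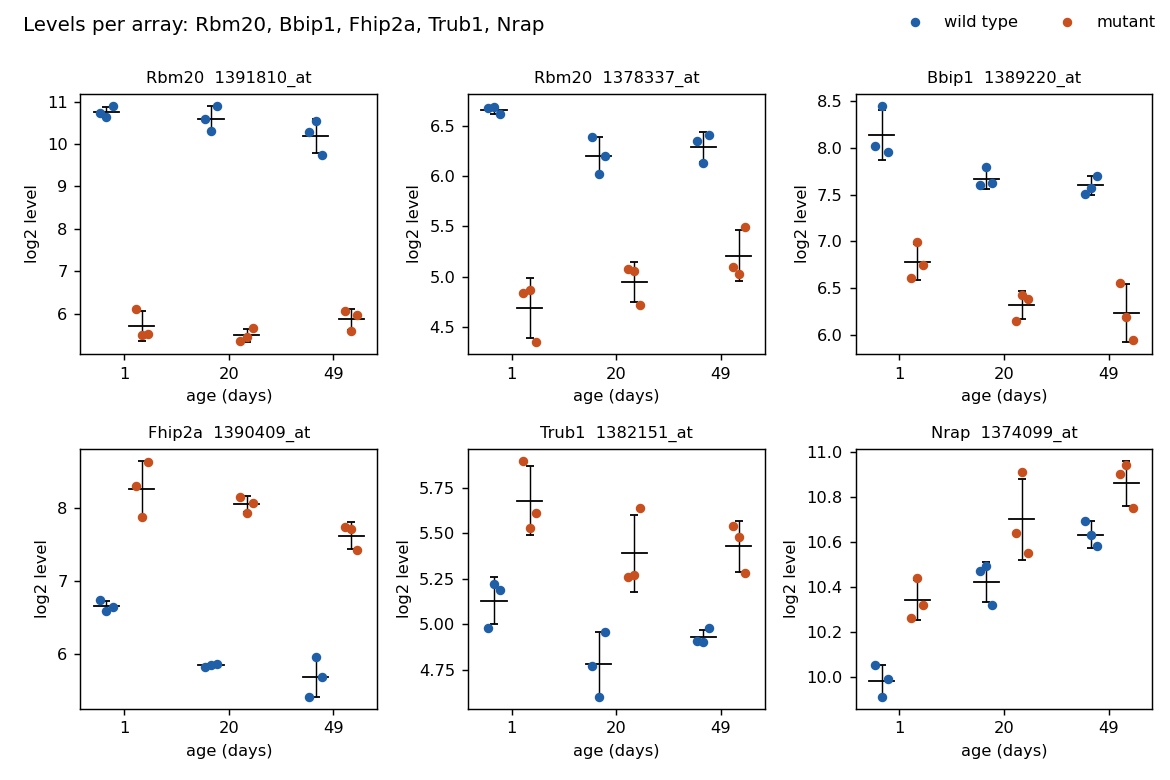
Log2 level (vertical axis) by age in days (horizontal axis) for 6 probe sets of Rbm20, Bbip1, Fhip2a, Trub1 and Nrap, with each point 1 animal, horizontal bars the group means and whiskers the SD (n = 3). Mutant points lie apart from wild-type points at every age in each panel, by 3.62 or more in Rbm20 1391810_at and by as little as 0.06 in Nrap at day 49.

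Bbip1, 3 genes from Rbm20 in the mouse gene order, was lower in the mutant by an almost constant step. Its probe set 1389220_at read 8.02, 8.45 and 7.96 in the wild type and 6.61, 6.99 and 6.75 in the mutant at day 1. At day 20 the values were 7.60, 7.79 and 7.62 against 6.15, 6.42 and 6.38, and at day 49 they were 7.51, 7.57 and 7.70 against 6.55, 6.19 and 5.94. Every mutant array was below every wild-type array of any age, with a gap of 0.53. The difference was -1.36 ± 0.15, -1.35 ± 0.15 and -1.37 ± 0.15 at the 3 ages, a 2.57-fold lower signal on average.

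Fhip2a had the largest excess of mutant signal among the members. Its probe set 1390409_at read 6.74, 6.59 and 6.64 in wild-type and 8.29, 7.87 and 8.62 in mutant hearts at day 1. At day 20 it read 5.83, 5.86 and 5.87 against 8.15, 7.93 and 8.07, and at day 49 it read 5.42, 5.96 and 5.69 against 7.74, 7.71 and 7.42. The genotypes did not overlap over all 18 arrays, and the wild-type arrays of day 20 were nearly identical. Signal was higher by 1.60 ± 0.16, 2.20 ± 0.16 and 1.93 ± 0.16, or 3.76-fold averaged over ages.

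Trub1, next to Fhip2a in the mouse order, was also higher in every mutant array than in any wild-type array, though by a gap of 0.05. Probe set 1382151_at read 4.98, 5.22 and 5.19 in the wild type and 5.90, 5.53 and 5.61 in the mutant at day 1. The day 20 values were 4.77, 4.60 and 4.96 against 5.26, 5.27 and 5.64, and the day 49 values 4.91, 4.90 and 4.98 against 5.54, 5.48 and 5.28. The differences of 0.55 ± 0.13, 0.61 ± 0.13 and 0.50 ± 0.13 were alike within their errors. Levels were close to those of the median probe set.

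Nrap, the muscle gene among the neighbours, differed least. Probe set 1374099_at read 10.05, 9.91 and 9.99 in the wild type and 10.26, 10.44 and 10.32 in the mutant at day 1. At day 20 it read 10.47, 10.49 and 10.32 against 10.64, 10.91 and 10.55, and at day 49 it read 10.69, 10.63 and 10.58 against 10.90, 10.94 and 10.75. The groups stood apart within each age but overlapped across ages, since the gene also rose with age. The mutant was higher by 0.36 ± 0.10, 0.28 ± 0.10 and 0.23 ± 0.10, or 1.22-fold on average. Without mutant array 2 the day 20 difference was 0.17.

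Pdcd4 was read by 5 probe sets, of which 3 (1383326_a_at, 1383327_at and 1383328_x_at) were designed on the same sequence record and may not be independent readings. Over the 18 arrays, 1383327_at and 1383328_x_at correlated at r = 0.97, while 1383326_a_at correlated with them at 0.63 and 0.70. Mutant arrays were higher without overlap in 4 of 5 probe sets at day 1, in 4 at day 20 and in 3 at day 49. Of all probe sets, 4.74%, 4.67% and 6.70% stood higher in this way, and the counts restate how Pdcd4 was chosen. The day 49 gaps were 0.02 in 1383327_at, 0.06 in 1383328_x_at and 0.01 in 1387521_at. Probe set 1387521_at read 6.77, 6.51 and 6.77 in the wild type and 7.25, 7.44 and 7.56 in the mutant at day 1. Its values were 7.40, 7.11 and 7.33 against 7.81, 7.86 and 8.49 at day 20, and 7.66, 7.96 and 7.84 against 8.30, 7.99 and 7.97 at day 49. By day 49 the groups were 0.01 apart, with wild-type levels above those of day 20.

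The other Pdcd4 probe sets ran the same way with one exception. The differences of 1383328_x_at were 0.89 ± 0.16, 0.91 ± 0.16 and 0.28 ± 0.16 at the 3 ages, those of 1383327_at were 0.84 ± 0.15, 0.78 ± 0.15 and 0.26 ± 0.15, and those of 1387521_at were 0.74 ± 0.16, 0.77 ± 0.16 and 0.27 ± 0.16. Probe set 1383326_a_at differed by 0.55 ± 0.14, 0.63 ± 0.14 and 0.05 ± 0.14, and its groups overlapped at day 49. In the recomputed settings the day 49 values of these 4 moved by less than the SD between replicates. Of them, only that of 1383326_a_at changed sign. The lowest were 0.13 in 1383328_x_at and 0.17 in 1383327_at, both without wild-type array 1. Those of 1387521_at and 1383326_a_at were 0.16 without mutant array 1 and -0.07 without mutant array 3. In the same order the highest were 0.369, 0.328, 0.336 and 0.125. The exception, 1383329_at, lay between 4.43 and 5.03 on all arrays and differed by 0.02 ± 0.12, 0.12 ± 0.12 and -0.09 ± 0.12. Mutant array 3 of day 20 was the highest of its group in the 4 probe sets other than 1383329_at. Pdcd4 and Bbip1 lie on opposite strands in mouse and their annotated spans overlap there, while their signals in the rat mutant moved apart, higher for the one and lower for the other.

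Dusp5 was the member whose difference changed side between ages. Probe set 1368124_at read 7.64, 7.63 and 7.37 in the wild type and 7.78, 7.77 and 7.98 in the mutant at day 1, with all mutant arrays above. At day 20 it read 7.33, 7.51 and 6.96 against 7.12, 6.56 and 6.69, where the groups overlapped. At day 49 it read 7.95, 7.36 and 7.49 against 6.89, 5.85 and 6.74, with all mutant arrays below. The differences were 0.29 ± 0.23, -0.47 ± 0.23 and -1.11 ± 0.23, and mutant array 2 of day 49 was the lowest of its group. Without the 3 day 1 arrays of a Gapdh gap above 1, which leaves 1 mutant array of day 1, the day 1 difference was 0.47. Without wild-type array 3 of day 1 it was 0.20. Whether the difference changed with age was not tested, since the members were chosen on the differences at these ages.

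Tdrd1, a germline gene, had a dim probe set. Probe set 1397133_at read 3.65, 3.67 and 3.78 in the wild type and 3.82, 3.68 and 3.69 in the mutant at day 1, and the groups overlapped. It read 3.79, 3.64 and 3.75 against 3.90, 4.04 and 4.01 at day 20, and 3.88, 3.78 and 4.05 against 4.55, 4.88 and 4.95 at day 49. The difference was 0.03 ± 0.10 at day 1, 0.26 ± 0.10 at day 20 and 0.89 ± 0.10 at day 49. At all ages in the wild type the level was below 4.22, the 25th percentile of mean levels over all probe sets. The germ cell markers measured, 2 of 7, averaged 4.93 to 4.98 in the mutant and 5.03 to 5.12 in the wild type at day 49. They were Piwil2 at -0.16 (limma's moderated test, adjusted p = 0.839) and Sycp3 at -0.09 (adjusted p = 0.917). Sycp3 was dim, with a mean level of 3.32. Their relation to Tdrd1 was not tested.

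**Figure D2:**
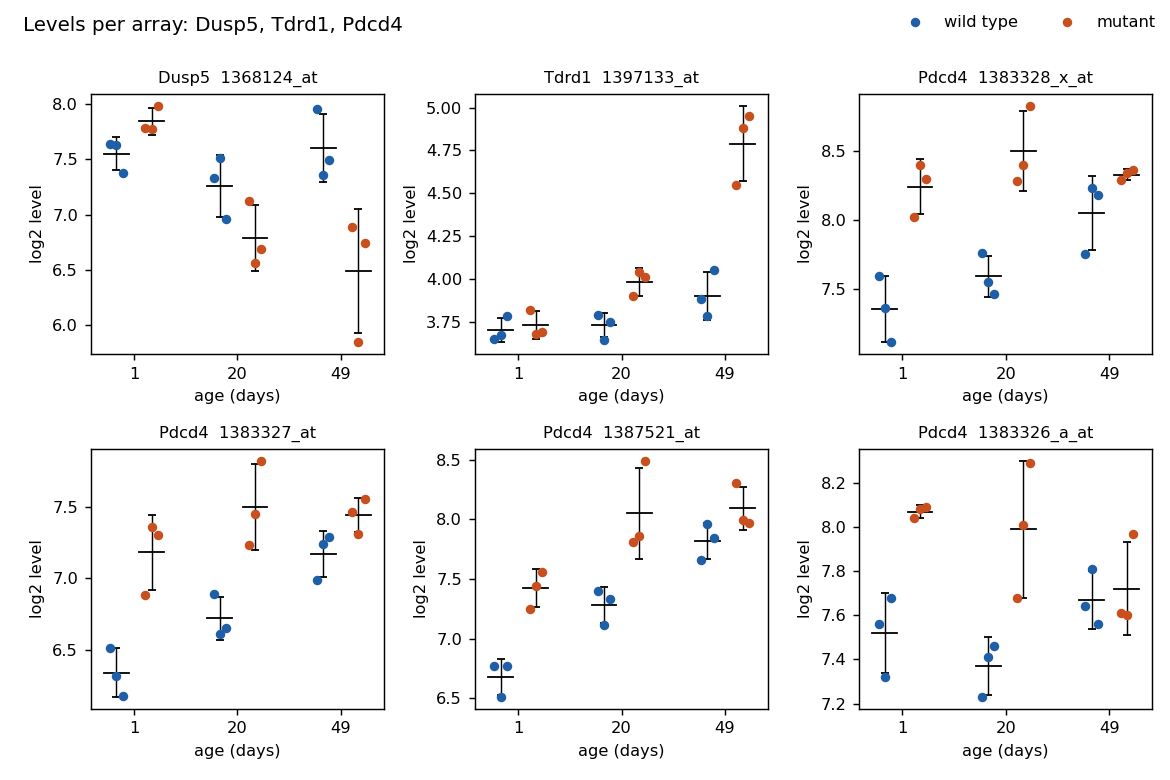
Log2 level (vertical axis) by age in days (horizontal axis) for Dusp5, Tdrd1 and 4 Pdcd4 probe sets, with each point 1 animal, horizontal bars the group means and whiskers the SD (n = 3). Mutant Dusp5 lies above wild type at day 1 and below it at day 49, the Tdrd1 groups part by day 49, and the Pdcd4 groups lie close together or overlap at day 49.

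The members were then set in the order of genes along the stretch. No rat genome was used here, so the order is that of protein-coding genes on mouse chromosome 19 in the RefSeq annotation of GRCm38.p6, and rat order may differ. In it, Dusp5 lies 2 genes before Rbm20, and after Rbm20 come Pdcd4 at 2, Bbip1 at 3, Nrap at 14, Tdrd1 at 21, Fhip2a at 25 (under its older name Fam160b1) and Trub1 at 26. From 60 genes before Rbm20 to 55 after it, 92 of 116 genes were measured by 149 probe sets. The 84 genes other than the members had 0 calls in 136 probe sets in any of the 4 genotype comparisons (limma's moderated test, adjusted p below 0.05). Over all probe sets, calls made up 0.110% at day 1, 0.139% at day 20, 0.606% at day 49 and 1.39% in the mean over ages. At an unadjusted p below 0.05 the 136 probe sets gave 10 in the mean over ages (7.35%, against 9.63% of all probe sets) and 6 at day 1 (4.41%, against 6.70%). They gave 3 at day 20 (2.21%, against 4.27%) and 11 at day 49 (8.09%, against 8.16%). Since genes with a difference were taken as members, the lack of calls among the rest partly restates that choice.

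Genes without a call were interleaved with the members. Between the outermost members, 15 other genes with 29 probe sets had mean differences from -0.15 to 0.29, with a median size of 0.06. Smc3, the cohesin subunit between Dusp5 and Rbm20, differed by -0.01 ± 0.05 in probe set 1387080_at. On the far side of Dusp5, the splicing factor gene Smndc1 stood at 0.20 ± 0.06 (adjusted p = 0.208) in 1388979_at and Mxi1, a MYC antagonist, at 0.12 ± 0.06 in 1372093_at. Shoc2, an activator of RAF kinases and the gene after Bbip1, was at 0.29 ± 0.10 (adjusted p = 0.242) in 1380435_at. That value came mainly from day 1, at 0.74 (adjusted p = 0.148), with 0.02 and 0.11 later. The adrenergic receptor gene Adra2a and the acyltransferase gene Gpam, next in order, were at 0.09 or less.

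The same held farther along. Before Nrap lie Acsl5, a fatty acid ligase, at 0.07 ± 0.05 in 1386926_at, Zdhhc6 at 0.01 ± 0.05, Vti1a at 0.02 ± 0.06 and the Wnt pathway factor Tcf7l2, whose 5 probe sets lay between -0.00 and 0.06. After it lie Dclre1a at -0.10 ± 0.07, Nhlrc2 at 0.14 ± 0.07 in 1399109_at and the cardiac beta-1 adrenergic receptor gene Adrb1 at 0.13 ± 0.08. Ablim1, an actin-binding gene next to Fhip2a, was at -0.06 ± 0.06 in 1388546_at, with -0.33 at day 1 and 0.23 at day 49. Its probe set 1391758_at was at 0.10 ± 0.09 in the mean and at 0.56 ± 0.16 at day 49 (adjusted p = 0.149). Beyond Trub1, Atrnl1 was at -0.26 ± 0.10 (adjusted p = 0.344) and Gfra1, a co-receptor of GDNF, at 0.18 ± 0.09 in 1367954_at. The smallest member difference averaged over ages, apart from the exceptional Pdcd4 probe set, was the 0.29 of Nrap. Of the other genes in the window, those with the largest differences were Nt5c2 at 0.31 ± 0.17, Shoc2 at 0.29, Sfxn4 at -0.27 ± 0.08 and Atrnl1 at -0.26, so the sizes of members and others meet here.

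**Figure D3:**
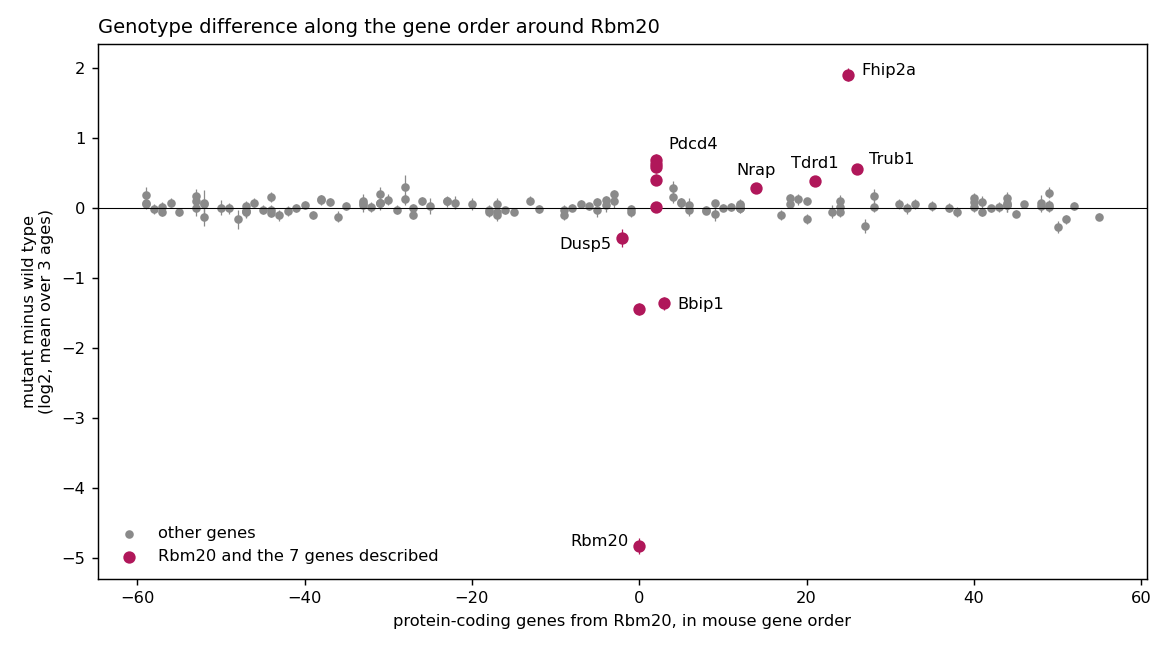
Mutant minus wild-type log2 difference averaged over the 3 ages (vertical axis, whiskers are SE) against the number of protein-coding genes from Rbm20 in the mouse order (horizontal axis), with 1 point per probe set. Grey points of the 84 other genes stay between -0.27 and 0.31, and the coloured points of the 8 members, which were chosen for differing, reach from -4.83 to 1.91.

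Age was tested with the mean of both genotypes, a contrast that the genotype differences do not enter. A change in a single genotype still enters that mean. The Dusp5 and Tdrd1 calls below came mainly from the mutant, and the Fhip2a call mainly from the wild type. The distance between the genotypes also chose these members. Their calls are therefore not read as age changes shared by both genotypes. From day 1 to day 20, Bbip1, Fhip2a, Dusp5 and Trub1 fell, while Nrap and 2 of 5 Pdcd4 probe sets rose. From day 20 to day 49, 1 member rose, Tdrd1. In the first interval 3 probe sets of 13 rose and 4 fell, against 19.5% and 21.5% of all (41.0% together). In the second 1 rose and 0 fell, against 10.1% and 13.4% of all (23.5% together). Whether the members changed with age more or less often than other genes was not tested. The median change of the 13 probe sets was -0.10 and 0.09, against 0.04 and 0.03 over all probe sets.

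Among the falls between day 1 and day 20, Fhip2a changed by -0.51 ± 0.11 (limma's moderated test, adjusted p = 0.00105), with -0.81 in the wild type and -0.21 in the mutant. Bbip1 changed by -0.47 ± 0.11 (adjusted p = 0.00155) and by that same amount in each genotype. Dusp5 fell by 0.67 with an SE of 0.16 (adjusted p = 0.0023), of which the wild type showed -0.29 and the mutant -1.05. Trub1 fell by 0.32 with an SE of 0.09 (adjusted p = 0.00711), with -0.35 and -0.29 in the wild type and mutant. These 4 calls held whichever single array was left out. Without the 3 arrays of a Gapdh gap above 1, all from day 1, Trub1 stood at -0.26 with an adjusted p of 0.071.

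Nrap rose by 0.40 ± 0.07 in the same interval (adjusted p = 0.000117), nearly alike in the wild type (0.44) and the mutant (0.36). In the second interval it stood at 0.19 ± 0.07 (adjusted p = 0.0598). Of the Pdcd4 probe sets, 1387521_at rose by 0.62 ± 0.11 (adjusted p = 0.000187) and 1383327_at by 0.35 ± 0.11 (adjusted p = 0.0133). The latter was at 0.29 with an adjusted p of 0.098 without the 3 arrays of uneven ends. The first rose by a like amount in both genotypes, 0.60 and 0.63. Between day 20 and day 49 its wild-type value went on to 0.54 ± 0.16 while the mutant stayed at 0.03 ± 0.16, which brought the genotypes together. The other 3 Pdcd4 probe sets did not pass, with adjusted p of 0.0887 for 1383328_x_at, 0.38 for 1383326_a_at and 0.616 for 1383329_at.

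Tdrd1 rose by 0.49 ± 0.07 between day 20 and day 49 (adjusted p = 0.000118), from 0.18 ± 0.10 in the wild type and 0.81 ± 0.10 in the mutant. With a sex term in the model, added because day 49 groups held more animals of high Xist, its change was again 0.49 (adjusted p = 0.000343). Rbm20 did not pass in either interval. Probe set 1391810_at stood at -0.19 ± 0.14 (adjusted p = 0.316) and -0.01 ± 0.14 (adjusted p = 0.952), a mean that includes mutant arrays near background. In the wild type alone it changed by -0.16 ± 0.20 and -0.41 ± 0.20, and 1378337_at by -0.46 ± 0.15 and 0.09 ± 0.15, given without a test.

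**Figure D4:**
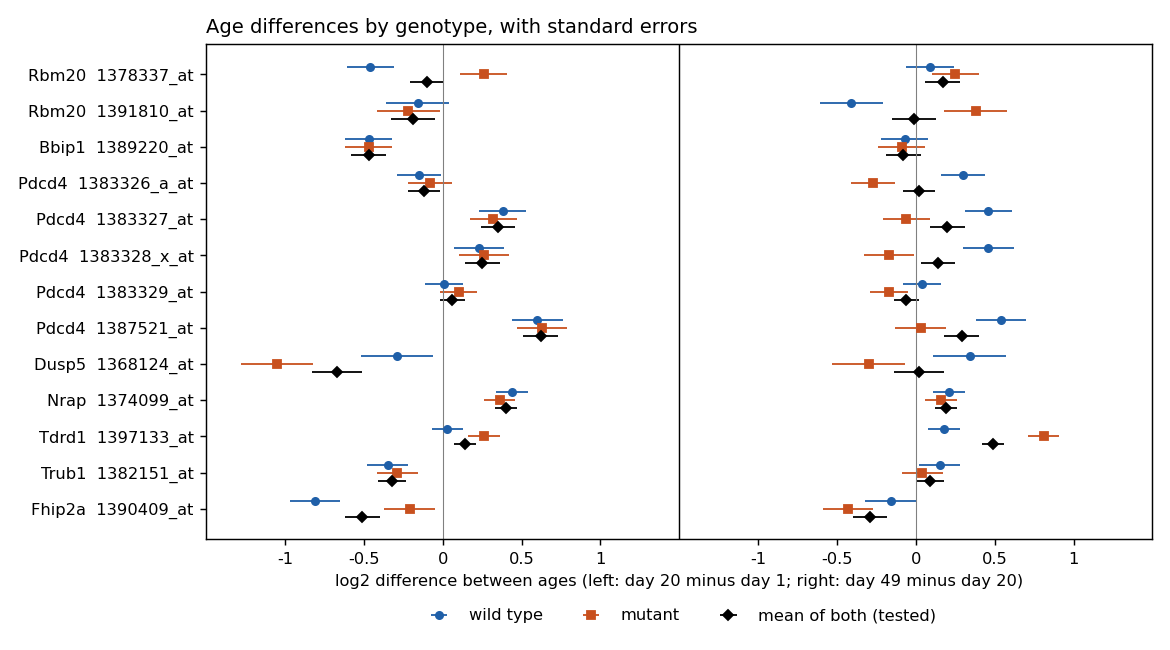
Log2 difference between ages (horizontal axis, left for day 20 minus day 1, right for day 49 minus day 20) for each of the 13 probe sets (vertical axis), with circles for wild type, squares for mutant, diamonds for the tested mean of both and whiskers for the SE. Wild-type and mutant symbols lie farthest apart for Dusp5 in the first interval (-0.29 against -1.05) and for Rbm20 1391810_at in the second (-0.41 against 0.38), and no such gap was tested.

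Patterns like that of Rbm20 were looked for by Pearson correlation with probe set 1391810_at among 12163 probe sets of other genes above the median level, as a description over 18 arrays that share the 2 genotypes. The highest were Bbip1 (r = 0.92), Mlip, a lamin-interacting protein of muscle (0.88), L3hypdh, a hydroxyproline dehydratase (0.79), and Pyroxd2 (0.78). The lowest were Csrp3, the muscle LIM protein of the Z-disc (-0.91), Fhip2a (-0.90), Vsig10 (-0.85) and the serine protease gene Prss23 (-0.84). The places of Bbip1 and Fhip2a restate the genotype differences for which they were chosen. Within the 9 wild-type arrays, where genotype does not enter, other genes led, Rtel1 (r = 0.94), Slc35b1 (0.94), Aars1, an alanyl-tRNA synthetase (0.93), and Psmc6, a proteasome subunit (0.92). In those genes the mutant differed by 0.10 ± 0.10, 0.02 ± 0.05, -0.02 ± 0.06 and -0.06 ± 0.07.

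Other genes of each member's pathway were taken from lists drawn from general knowledge. Of 28 known RBM20 splice targets, 25 were measured, each through the brightest of its probe sets. In the mean over ages 4 rose and 1 fell, against 0.657% called higher and 0.738% called lower over all probe sets. Such shares include dim probe sets, so for lists read by bright ones they are only a rough guide. By age, 0 passed at day 1 (4 at an unadjusted p below 0.05), and 2 rose and 1 fell at days 20 and 49. The actin regulator Enah rose by 0.99 ± 0.07 (adjusted p = 1.12e-07), the slow myosin gene Myh7 by 0.83 ± 0.11 (adjusted p = 0.000479) and the LIM protein gene Fhl1 by 0.53 ± 0.06 (adjusted p = 9.09e-05). The Myh7 value came mainly from day 49, at 1.96, with 0.07 at day 1 and 0.44 at day 20. Lrrfip1 rose by 0.34 ± 0.07 (adjusted p = 0.0239), though another of its probe sets stood at -0.28, and Mlip fell by 0.52 (adjusted p = 9.35e-05). The other probe sets of Enah were at 0.39 and -0.03, those of Fhl1 at 0.91 and 0.11, and that of Myh7 at 1.42. The median of the list was 0.05, against 0.00 over all probe sets, and some of the targets were first found in these mutant rats, which makes the list no independent evidence. Titin itself, in 1 probe set, was at 0.06 ± 0.06 (adjusted p = 0.84).

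Of 25 other splicing regulators of muscle listed, 23 were measured. In limma's test of the mean over ages 0 passed, against 1.39% of all probe sets. At an unadjusted p below 0.05 there were 2, against 9.63% of all, and nothing is read from these counts. The kinase gene Srpk3 stood at 0.25 ± 0.08 (adjusted p = 0.192) and Rbfox1 at -0.24 ± 0.10 (adjusted p = 0.445). From day 1 to day 20, 4 of the 23 rose and 16 fell, against 19.5% and 21.5% of all probe sets, dim ones included. Among the rises was Rbfox1, a neuronal and muscle splicing factor, at 3.44 ± 0.13 (adjusted p = 2.73e-13). Mbnl1, which drives adult splicing, rose by 0.81 ± 0.07 (adjusted p = 1.79e-08) and Ptbp1, a repressor of many exons, fell by 0.79 with an SE of 0.07 (adjusted p = 4.53e-08).

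The partners of the neighbouring genes gave 1 call in the mean over ages and 0 at single ages. Of all probe sets, 1.39% were called in the mean and 0.110%, 0.139% and 0.606% at days 1, 20 and 49. An unadjusted p below 0.05 in the mean was found for 9.63% of all. Nothing is read from the counts of these lists. Csrp3, among 15 measured partners of NRAP, rose by 0.38 ± 0.05 (adjusted p = 0.000233), with 4 of the 15 at an unadjusted p below 0.05. The filamin gene Flnc of the same list was at 0.31 ± 0.08 (adjusted p = 0.0661). In each of the other lists 0 passed in limma's test of the mean or of any age, and list medians in the mean over ages lay between -0.03 and 0.03. Of the BBSome and its chaperones (11 measured, 1 at an unadjusted p below 0.05) Bbs2 was at -0.34 ± 0.09 (adjusted p = 0.0914) and Bbs1 at 0.15 ± 0.08.

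Of the initiation factors around PDCD4 (12 measured, 0 unadjusted), Eif4ebp2 was at -0.11 ± 0.07 and Eif4h at 0.11 ± 0.06. The ERK pathway and its phosphatases (15 measured, 1 unadjusted) had Dusp8 at 0.20 ± 0.07 and Dusp1 at -0.12 ± 0.12. For piRNA and Tudor genes (7 of 17 measured, 0 unadjusted) the values were 0.09 ± 0.07 for Tdrd7 and 0.09 ± 0.08 for Mov10l1. Pseudouridine synthases (13 measured, 2 unadjusted) had Pusl1 at -0.20 ± 0.10 and Dkc1 at -0.18 ± 0.10. In the FHIP and Hook family (9 measured, 0 unadjusted), Rab5a was at 0.13 ± 0.07 and Hook1 at -0.11 ± 0.07. From day 1 to day 20, 19.5% of all probe sets were called higher and 21.5% lower. Those shares include dim probe sets, while each list gene was read by its brightest, so they are no like background for the lists. In that interval the NRAP partners had 3 rises and 7 falls, the initiation factors 2 and 9, the ERK genes 1 and 6, the BBSome 1 and 4 and the pseudouridine synthases 0 and 8, while the piRNA and FHIP lists had 1 and 1 each. Of the eIF4A helicase genes, Eif4a1 fell by 0.46 with an SE of 0.07 (limma's moderated test, adjusted p = 1.97e-05). Eif4a2 went the other way, rising by 0.42 ± 0.06 (adjusted p = 2.62e-05). Dusp6, a phosphatase of ERK in the cytoplasm, fell by 0.39 with an SE of 0.10 (adjusted p = 0.00486), and Bbs4, a BBSome subunit, by 0.37 with an SE of 0.08 (adjusted p = 0.00177). The rises in those lists were Dusp1 at 0.93 ± 0.15 (adjusted p = 5.01e-05) and Bbs2 at 0.35 ± 0.11 (adjusted p = 0.0206).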

How the data were processed

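RNA of 18 rat hearts, 3 animals in each of 6 groups of genotype and age, was read on Affymetrix Rat 230 2.0 arrays. Per the labels and the design text, the authors deposited log2 levels per probe set from robust multi-array analysis (RMA). RMA is also named, with no version, in the submitters' processing notes. The software behind it was not named there. Dim levels are mostly background, which compresses differences. Array medians lay between 5.42 and 5.50, and 0 of 153 pairs of arrays were identical. The number of arrays limits the precision.

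The values were used as deposited. Of 31099 probe sets, 57 controls were left out. One symbol was listed for 20826 probe sets, several for 436 and none for 9780. A single limma 3.58.1 model in R 4.3.3 of the 6 groups (12 residual and 5.77 prior degrees of freedom) gave mutant minus wild type at each age and averaged over ages, and age differences averaged over genotypes. Tests were two-sided and moderated, with Benjamini-Hochberg adjustment over 31042 probe sets and calls at an adjusted p below 0.05. The fit was tested on simulated data. Groups came from the description field, replicate numbers from the titles. Same-numbered animals of an age did not deviate together as pairs (correlations of -0.19 to 0.22), so the main model has no block.

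Members and lists were chosen with earlier results of these data known. Named genes are all members, the called genes within 60 genes of Rbm20 in mouse order with up to 5 measured genes on each side of Rbm20, Nrap and Fhip2a, the 4 most and least correlated genes, and, per list, at most 4 called genes or else the 2 with the largest differences. Lrrfip1, titin, Flnc, the genes named for age, Nt5c2, Sfxn4 and Atrnl1 are named beyond this rule and were chosen after their values were seen. Alternatives were array centring, a filter on dim probe sets, another variance model, a replicate block, separate ages and leaving out each array, with a sex term and the Gapdh gap added after the data were seen.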

Additional observations from a re-analysis of the deposited data

Results flagged for a closer look

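Dusp5 stood out because every mutant array lay above the wild-type arrays at day 1 and below them at day 49. Of all probe sets, 4.74% stood above in this way at day 1 and 6.96% below at day 49. Its mutant minus wild-type difference was 0.29 ± 0.23 at day 1, where the gap between the groups was 0.12. It was -0.47 ± 0.23 at day 20, where the groups overlapped, and -1.11 ± 0.23 at day 49. The change between ages was not tested, because the member was chosen on these differences. Without mutant array 2 the day 49 difference was -0.79. Groups of 3 animals are too small to tell an outlying array from the spread between animals.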

How the results depend on the processing

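Of 1919 recomputed member values, 1897 kept their side of the threshold or moved by less than the SD between replicates, 5 described values moved by more, 2 age calls ended and 15 values passed that had not. No called age change turned its sign, but small differences did, among them Pdcd4 1383326_a_at at day 49. The values that moved were the Pdcd4 1387521_at difference at day 20 (0.55 without mutant array 3), the day 49 differences of Tdrd1 (1.02 without mutant array 1) and Dusp5 (-0.79 without mutant array 2), and the day 1 differences of Fhip2a (1.93) and Rbm20 1378337_at (-2.30) without the arrays of uneven ends. The calls that ended are the day 20 changes of Trub1 and Pdcd4 1383327_at given above. Leaving out the arrays of uneven ends keeps only 1 mutant array of day 1. Passing under some alternatives were the day 49 changes of Fhip2a (7 settings), Nrap (4) and Pdcd4 1387521_at (2), and the day 20 change of Pdcd4 1383328_x_at (2).

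Counts of called probe sets depended on single arrays. Leaving out 1 array at a time gave 281 to 524 calls in the mean over ages (433 with all arrays), 15 to 234 at day 1 (34), 21 to 49 at day 20 (43) and 109 to 240 at day 49 (188). Age differences ranged from 11455 to 12906 (12728) and from 5641 to 7878 (7306). The mean over ages gave 281 without wild-type array 1 of day 1 and 284 without wild-type array 2 of day 20. The day 1 count was 234 without mutant array 3 and 111 without wild-type array 2 of day 1, and 15, 17 and 17 without wild-type array 1, wild-type array 3 or mutant array 2, and 22 without mutant array 2 or wild-type array 3 of day 49. The day 20 count was 24, 21 and 21 without wild-type array 1, 2 or 3 and 22 without mutant array 2 of that age, and the day 49 count 109, 120 and 123 without wild-type array 1, 2 or 3. The day 1 count was 4 with the day 1 arrays alone, and centring turned 17 higher and 17 lower into 10 and 16. Without the 3 arrays of a Gapdh gap above 1 it was 64, where 1 mutant array of day 1 is left and is assumed to vary like the other groups, and the day 49 count was 306. The replicate block gave 381, 37, 35 and 184 calls for the mean and the 3 ages and 12409 and 6860 for the age differences, and the sex term 413, 35, 37 and 181, and 12583 and 6549. The cause of these shifts was not tested. The block changed no member's call. A fit of only the ages compared gives no mean over ages, and the filter on dim probe sets leaves out Trub1, Tdrd1 and Pdcd4 1383329_at.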

Other observations

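Complete separation of all 9 mutant from all 9 wild-type arrays was found in 13 of 31042 probe sets (0.0419%), of which 5 belong to Rbm20, Bbip1, Fhip2a and Trub1. The others were chosen after their values were seen. Csrp3 (mean difference 0.38), Vsig10 (0.47) and Mybpc2, a thick filament gene of fast muscle (0.79), were higher in every mutant array, and Mlip (-0.52) was lower, with gaps of 0.17, 0.06, 0.01 and 0.12 between the groups. The remaining 4 probe sets have no single symbol in the annotation used. Of these, 1375230_at differed by -3.14 and 1378866_at by -2.42, with gaps of 0.26 and 0.56, while 1389429_at was higher by 1.79 and 1392750_at lower, at -0.72.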
